A study of Mus musculus with 6 samples.

Results

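The 7 genes described here, Adamts1, Adamts4, Adamts5, Adamts8, Adamts9, Adamts15 and Adamts20, encode the secreted metalloproteases that cut versican or its relative aggrecan. They were taken by symbol from a list of such proteases, with no threshold on their measured values, and all 7 were found among the 24062 gene symbols counted. RNA sequencing was done on auditory nerve microdissected from young adult mice of strain C57BL/6, named C57BL/6J in the design text, with 3 wildtype and 3 Vcan knockout libraries. Each library pooled both cochleae of a mouse. The labels name no promoter, Cre or altered exon for the knockout, so it is described only by its genotype and by what was left of the Vcan transcript. The question is whether the transcripts of the enzymes that degrade versican differ when versican is deficient.

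Versican is a large chondroitin sulfate proteoglycan that binds hyaluronan and fills the provisional matrix of embryos, vessel walls and healing wounds. In nerve it is a component of the matrix at nodes of Ranvier. ADAMTS proteases are made as inactive precursors, lose their propeptide to furin-like convertases, and hold a zinc ion at their active site. They cut the core proteins of versican, aggrecan, brevican and neurocan after a glutamate, and the fragments are themselves found in developing and injured tissue. Their activity is held back by TIMP3 and by endocytic clearance through LRP1.

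The active site is what the 7 members share by descent, and it is shown here as the coding strand of the 11 codons of the zinc-binding signature (GENCODE vM21 transcripts, GRCm38, 5′ to 3′). Capitals mark the codons of the 3 zinc-binding histidines and of the catalytic glutamate.

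Adamts1: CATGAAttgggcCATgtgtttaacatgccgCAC

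Adamts4: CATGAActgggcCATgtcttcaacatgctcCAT

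Adamts5: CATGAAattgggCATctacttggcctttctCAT

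Adamts8: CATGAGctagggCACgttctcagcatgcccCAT

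Adamts9: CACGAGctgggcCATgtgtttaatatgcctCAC

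Adamts15: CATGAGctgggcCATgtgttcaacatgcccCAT

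Adamts20: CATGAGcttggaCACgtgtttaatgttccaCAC

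The signature occurred once in each protein, and 14 of the 33 bases were the same in all 7 genes. Adamts4 and Adamts15 matched at 30 of 33 bases, while Adamts5 matched the other members at 18 to 21. In each gene an intron divides the signature, and its place sorts the members. The first exon holds 10 of the 33 bases in Adamts1, Adamts4, Adamts5, Adamts8 and Adamts15, and 17 in Adamts9 and Adamts20. Adamts9 and Adamts20 also encode the longest proteins, of 1931 and 1906 residues against 845 to 968 for the others. In Adamts1 the signature lies in exons 3 and 4 on the minus strand (chr16:85799536-85799545 and chr16:85799191-85799213). In Adamts5 it lies in exons 2 and 3, also on the minus strand (chr16:85887817-85887826 and chr16:85878015-85878037). In Adamts9 it spans exons 8 and 9 on the minus strand (chr6:92908477-92908493 and chr6:92905285-92905300), and in Adamts20 the same exons of that gene on the minus strand (chr15:94355280-94355296 and chr15:94353678-94353693).

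The substrate's own site is shown for comparison: the 11 codons of Vcan around the bond these enzymes cut, with the glutamate before it and the alanine after it in capitals.

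Vcan: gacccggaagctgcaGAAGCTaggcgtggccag

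It lies in exon 8 of the longest Vcan transcript, on the minus strand (chr13:89693206-89693238), and encodes residues 1396 to 1406 of 3354. Exon 8 is present in some splice forms of versican and absent from others. Gene counts do not tell those forms apart, so how much of the counted Vcan RNA encodes this site was not measured.

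The targeted gene was checked first. Vcan was at 8.36, 9.61 and 7.32 CPM (read counts scaled to library size) in wildtype replicates 1, 2 and 3, and at 5.44, 2.70 and 2.88 CPM in the knockout replicates. The knockout values all lay below the wildtype ones, and Vcan RNA was still detected (fold 0.44, 95% interval 0.25 to 0.74). That difference did not pass correction over all genes (log2 fold change −1.20, SE 0.32, edgeR adjusted p = 0.558), while it did in DESeq2 (adjusted p = 0.0327; 0.0327 to 0.9999 over the 12 alternatives tried). The libraries held 74530860 to 92513887 gene counts. Wildtype replicate 3 stood apart, with correlations of 0.947 to 0.957 with the other libraries on the log2 CPM scale. It also had the least RNA of the 7 spiral ganglion neuron markers (5079 CPM summed, against 8614 to 10202 elsewhere) and the most of the 5 melanocyte markers (1384 against 9.55 to 234). Most of that melanocyte sum was Dct (1266 CPM). Tyr and Mlana were also highest in wildtype replicate 3, while Pmel and Tyrp1 were not. Snap25 and Nefl, which mark the neurons of the labelled tissue, were abundant in all libraries. The 6 astrocyte markers summed to 529 to 995 CPM in wildtype and 293 to 481 CPM in knockout libraries, and the 7 macrophage markers, of which 6 were found, to 160 to 174 and 117 to 145 CPM. Of the 6 macrophage markers found, 4 had negative and 2 positive fold changes. The 6 endothelial markers summed to 251 to 283 CPM in wildtype and 316 to 410 CPM in knockout libraries, but 3 had positive and 3 negative fold changes. Emcn averaged 102 and 163 CPM and Cldn5 38.3 and 73.4 CPM (wildtype and knockout). Pecam1, Cdh5 and Tie1 had log2 fold changes of −0.22, −0.12 and −0.08. The 6 neutrophil markers summed to 17.9 to 51.5 CPM in wildtype and 71.1 to 140 CPM in knockout libraries. The neutrophil sum of knockout replicate 1 was nearly all Ltf (121 of 124 CPM), and the other 5 neutrophil markers were at their lowest of the 6 libraries there. No marker of these lists passed the threshold in edgeR, and marker calls in DESeq2 and limma-voom are not given. The part of these cells in the results was not tested. No batch is named. The library numbers in the column names are consecutive within each genotype, so whatever they mark cannot be told apart from genotype.

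None of the 7 proteases passed the test between genotypes. All 7 passed the filter on low counts, and 0 of 7 had an adjusted p under 0.05 in edgeR, where 0.138% of the 16722 genes tested did. At an unadjusted p under 0.05 the count was again 0 of 7, against 5.20% of genes. DESeq2, which called 1.44% of the genes it tested, called 0 of 7, and so did limma-voom. For each member the wildtype and knockout libraries overlapped, whereas the groups stood apart with the knockout higher for 5.42% of genes and with the knockout lower for 4.93%. Counts of 0 among 7 genes are near these background shares. The mean was higher in knockout nerve for Adamts5, Adamts8, Adamts15 and Adamts20 and lower for Adamts1, Adamts4 and Adamts9. The median log2 fold change of the 7 was 0.13, and that of all genes tested was −0.01. In the authors' deposited table all 7 have an adjusted p of 0.9998.

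**Figure D1:**
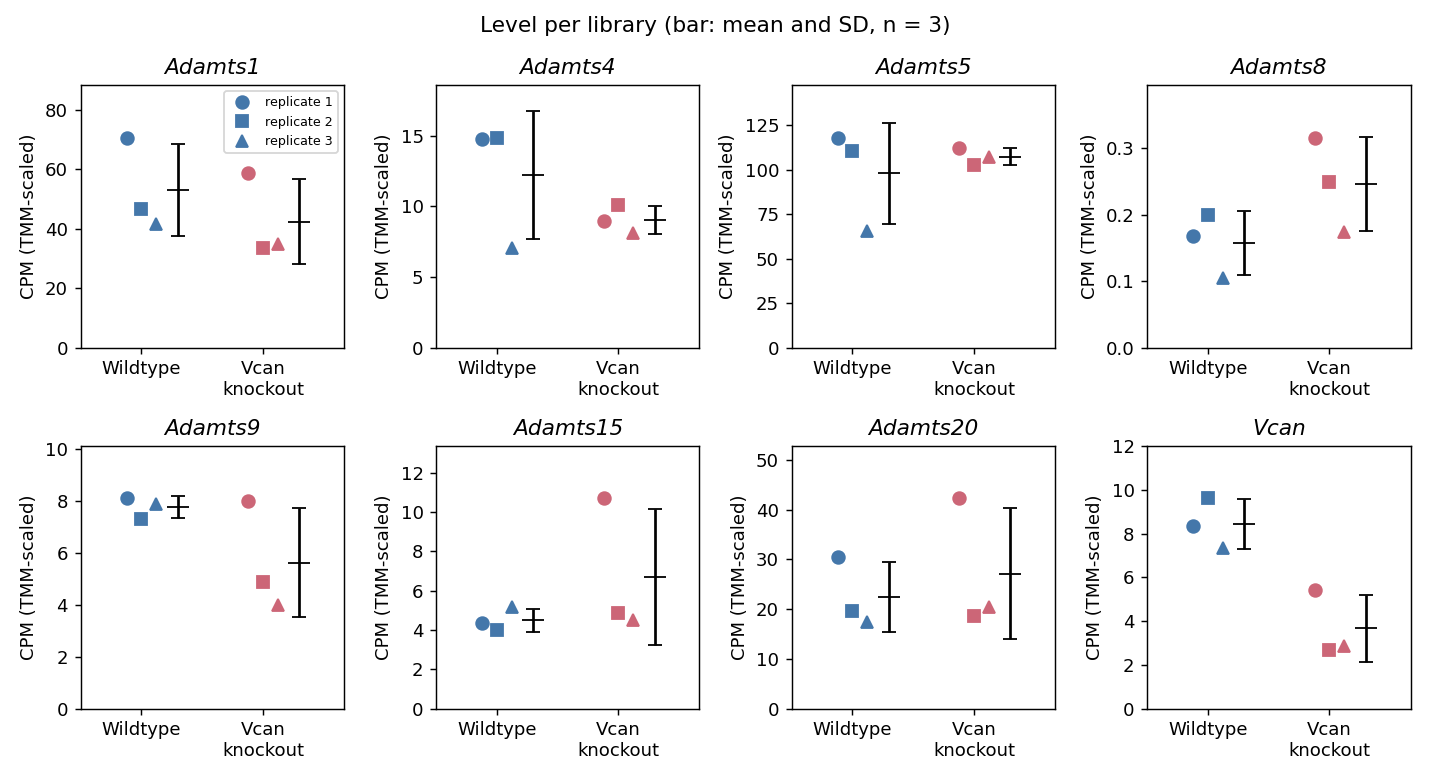
Library-scaled CPM (vertical axis) of the 7 proteases and Vcan in 3 wildtype (blue) and 3 Vcan knockout (red) libraries; symbols mark the replicate number and the black bar gives the mean and SD. The groups overlap for each protease, and only for Vcan do all knockout libraries lie below all wildtype libraries.

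Adamts5 and Adamts1 were the most abundant members. Adamts5, also called aggrecanase-2, is the main aggrecan-degrading enzyme of mouse cartilage and also cuts versican. It was at 118, 110 and 65.4 CPM in the wildtype libraries and at 112, 102 and 107 CPM in the knockout libraries. The 3 knockout values lay close together, and wildtype replicate 3 alone was low. Its log2 fold change was 0.13 (SE 0.23, edgeR adjusted p = 0.9996), and the 95% interval of the fold ran from 0.75 to 1.60. Without wildtype replicate 3 the sign turned, to −0.10. That library was also the lowest in the neuron markers given above and in the summed Schwann cell markers (2974 CPM, against 3483 to 5477 elsewhere). It was the highest in the fibroblast, chondrocyte, smooth muscle and pericyte, melanocyte and erythroid marker sums. The part of these cells in the Adamts5 value was not tested. Adamts5 had 5589 to 9900 counts per library.

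Adamts1, a protease induced in inflammation and at ovulation and able to cut versican, was at 70.8, 46.7 and 41.8 CPM in wildtype and 59.0, 33.5 and 34.9 CPM in knockout nerve. Replicate 1 was the highest library of each genotype, and the knockout mean of 42.5 ± 14.3 CPM lay within an SD of the wildtype mean of 53.1 ± 15.5 (SD, n = 3). Its log2 fold change of −0.32 (SE 0.30, edgeR adjusted p = 0.9996) corresponds to a fold of 0.80 with a 95% interval of 0.49 to 1.30. Leaving out wildtype replicate 1 moved the log2 value to −0.06, and leaving out knockout replicate 1 moved it to −0.63. Adamts1 and Adamts5 are neighbours on chromosome 16, on the same strand (85793827 to 85803113 and 85856173 to 85901828, GRCm38), 53.1 kb apart and with no protein-coding gene between them. Both were highest in wildtype replicate 1, while the lowest library was knockout replicate 2 for Adamts1 and wildtype replicate 3 for Adamts5.

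Adamts4, or aggrecanase-1, cuts brevican and aggrecan in addition to versican, and in the brain its transcript is known from mature oligodendrocytes. In wildtype nerve it was at 14.7, 14.9 and 7.03 CPM and in knockout nerve at 8.98, 10.1 and 8.11 CPM. Wildtype replicates 1 and 2 lay above all the others, and wildtype replicate 3 was the lowest of the 6. The means were 12.2 ± 4.49 and 9.05 ± 0.983 CPM (SD, n = 3). The log2 fold change was −0.43 (SE 0.31, edgeR adjusted p = 0.9996), and the interval of the fold ran from 0.44 to 1.24. Without wildtype replicate 3 the value went to −0.72 (edgeR adjusted p = 0.330, with 0.330 to 1.000 over the 12 alternatives), and without wildtype replicate 1 or 2 it went to −0.27. The 9 oligodendrocyte markers summed to 447, 649 and 287 CPM in wildtype and 227, 306 and 244 CPM in knockout nerve. All 9 had negative fold changes, with none past the threshold in edgeR. The libraries with the highest sums, wildtype replicates 2 and 1, were those with the most Adamts4, followed in both by knockout replicate 2. The remaining libraries ran in opposite orders. Their marker sums fell from wildtype replicate 3 to knockout replicate 3 to knockout replicate 1, while Adamts4 rose along that series. Wildtype replicates 2 and 1 also led the Schwann cell marker sums (5477 and 5261 CPM) and the astrocyte sums (995 and 735 CPM). Mog, a protein of central myelin, averaged 69.8 ± 35.0 CPM in wildtype and 42.2 ± 16.4 CPM in knockout libraries (SD, n = 3), and the part of oligodendrocytes in the Adamts4 values was not tested. In bulk tissue fewer cells of a type and less RNA per cell cannot be told apart. Adamts4 lies on chromosome 1 (171250421 to 171260637, plus strand, GRCm38).

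Adamts9 and Adamts20, the long members with a C-terminal GON domain, are known to act together on versican during mouse development. They lie on the minus strands of chromosome 6 (92772699 to 92943492) and chromosome 15 (94270163 to 94465418, GRCm38). Adamts9 was at 8.10, 7.30 and 7.87 CPM in wildtype libraries, the narrowest spread of any member in that group. In the knockout it was at 8.0, 4.89 and 3.99 CPM, so knockout replicate 1 was as high as wildtype nerve and the other 2 lay below all wildtype libraries. The log2 fold change was −0.46 (SE 0.29, edgeR adjusted p = 0.9996, fold interval 0.45 to 1.17), the lowest unadjusted p of the 7 at 0.155. It moved to −0.80 without knockout replicate 1, where the adjusted p was 0.429 (0.429 to 1.000 over the 12 alternatives), and to −0.27 without knockout replicate 3. The sum of the 6 fibroblast markers was also lowest in knockout replicates 2 and 3, at 261 and 274 CPM against 321 to 410 in the other libraries. Of the 6, 5 had negative fold changes. Pi16 went the other way, at 1.80 and 2.58 CPM in those libraries against 1.10 to 1.56 CPM in wildtype. The sum of the 7 smooth muscle and pericyte markers was lowest in the same libraries (224 and 266 CPM, against 269 to 388 in wildtype). The part of these cells in the Adamts9 values was not tested. Gene models on the opposite strand cover 9.18% (A730049H05Rik) and 2.82% (Gm15737) of the Adamts9 exon length. Whether counting used strand is not stated in the sources at hand, and reads from those genes could not be told apart from Adamts9 if it did not.

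Adamts20 is the gene mutated in belted mice, whose white belt reflects a loss of melanoblasts. It was at 30.5, 19.6 and 17.4 CPM in wildtype and 42.3, 18.7 and 20.5 CPM in knockout nerve. Replicate 1 was again the highest of each genotype, and the remaining 4 libraries lay between 17.4 and 20.5 CPM. The means of 22.5 ± 7.03 and 27.2 ± 13.1 CPM (SD, n = 3) differed by a log2 fold change of 0.27 (SE 0.37, edgeR adjusted p = 0.9996, fold interval 0.65 to 2.23). Without knockout replicate 1 the sign turned, to −0.20. The library with the most melanocyte marker RNA, wildtype replicate 3, where that RNA was mostly Dct, had the least Adamts20.

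Adamts15 and Adamts8 lie next to each other on chromosome 9, transcribed away from each other, with 20.1 kb and no annotated gene between them (30899155 to 30922452 on the minus strand and 30942562 to 30963838 on the plus strand). Adamts15, which cuts versican in developing muscle, was at 4.37, 3.98 and 5.15 CPM in wildtype nerve. The knockout libraries were at 10.7, 4.87 and 4.50 CPM. Knockout replicate 1 stood far above the rest, the next library being wildtype replicate 3, and the other 2 knockout values lay within the wildtype range. The log2 fold change of 0.57 (SE 0.37, edgeR adjusted p = 0.9996, fold interval 0.80 to 2.75) went to 0.06 without that library. Adamts8, a protease best known from lung and with weak activity on aggrecan, was barely detected, with 14, 18 and 9 counts in wildtype and 24, 23 and 15 counts in knockout libraries. Those are 0.168, 0.200 and 0.105 CPM and 0.316, 0.249 and 0.174 CPM. Exact Poisson 95% intervals reached from 4.12 to 17.1 counts for the lowest library and from 15.4 to 35.7 for the highest (counting error only: without molecular identifiers, reads that copy the same molecule are counted separately). Its log2 fold change was 0.63 (SE 0.49, edgeR adjusted p = 0.9996), the widest interval of the 7, with folds from 0.69 to 3.48. An antisense model (Gm29724) covers 10.6% of its exon length.

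**Figure D2:**
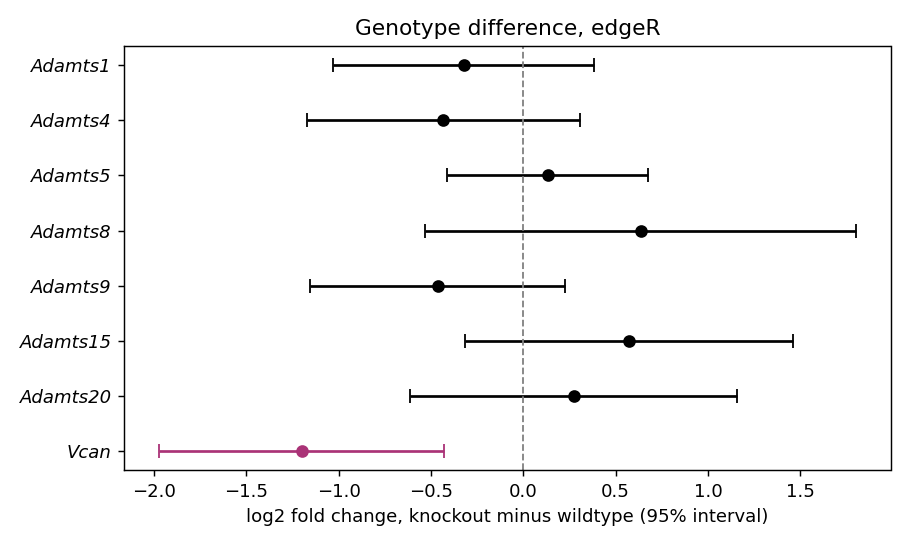
Log2 fold change (horizontal axis, knockout minus wildtype, edgeR) of each protease and of Vcan, with its 95% interval. All 7 protease intervals include 0, and the Vcan interval runs from −1.97 to −0.43.

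The intervals give the precision that 3 animals per group allowed. For Adamts5 a fold above 1.60 or below 0.75 lay outside the interval, while for Adamts8, Adamts15 and Adamts20 a fold above 2 lay inside it. On the lower side the intervals of Adamts1, Adamts4 and Adamts9 reached folds of 0.49, 0.44 and 0.45. The spread between animals of a genotype differed by gene and group. The highest wildtype library exceeded the lowest by 2.11 times for Adamts4, 1.90 for Adamts8, 1.80 for Adamts5, 1.76 for Adamts20 and 1.69 for Adamts1, but by only 1.29 for Adamts15 and 1.11 for Adamts9. Among knockout libraries that ratio was 2.38 for Adamts15, 2.26 for Adamts20, 2.00 for Adamts9, 1.82 for Adamts8 and 1.76 for Adamts1, but only 1.24 for Adamts4 and 1.10 for Adamts5.

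**Figure D3:**
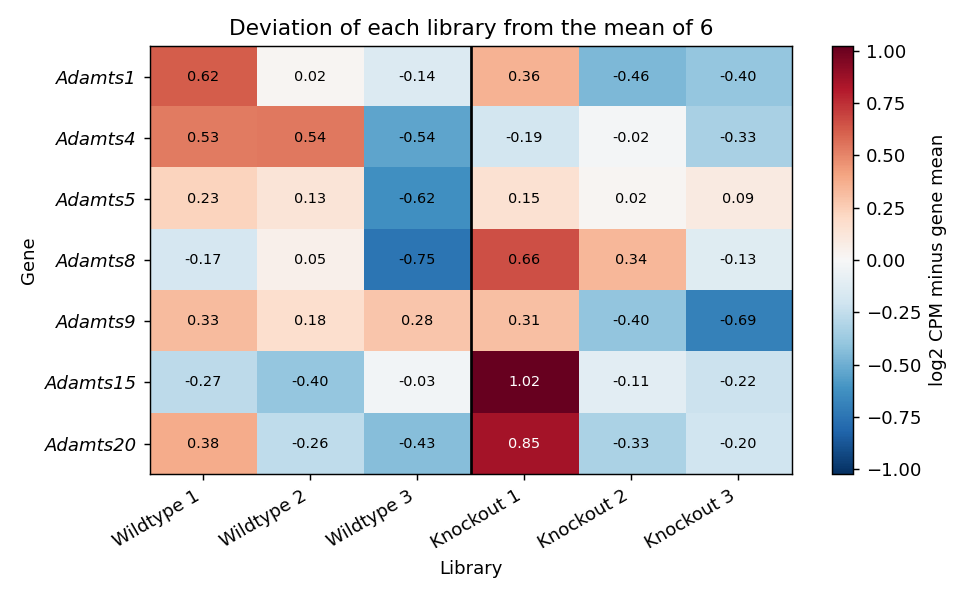
Each cell gives the log2 CPM of a protease in a library minus the mean of the gene over the 6 libraries (rows, genes; columns, libraries; red above and blue below the mean). Knockout replicate 1 is the highest library for 3 genes, with 1.02 for Adamts15 and 0.85 for Adamts20, and wildtype replicate 3 is the lowest for 4.

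A few libraries were high or low for several members. Knockout replicate 1 exceeded both other knockout libraries for 6 of the 7 genes, all but Adamts4. It was the highest of all libraries for Adamts8, Adamts15 and Adamts20, and wildtype replicate 1 was the highest for Adamts1, Adamts5 and Adamts9. Wildtype replicate 3 was the lowest for Adamts4, Adamts5, Adamts8 and Adamts20. Knockout replicate 1 was also the library with the fewest counts, 74530860, and it correlated best with wildtype replicate 1 (0.977 on the log2 CPM scale, across genes), above its values with knockout replicates 2 and 3 (0.961 and 0.962). The replicate numbers are not stated to mark shared litters or days.

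Levels of different genes can be compared only per length, and for this the CPM were divided by summed exon length in kilobases (RPKM). Over all 6 libraries the mean was 9.50 RPKM for Adamts5 and 9.01 for Adamts1. Below them came Adamts20 at 2.76, Adamts4 at 2.21, Adamts15 at 0.540, Adamts9 at 0.445 and Adamts8 at 0.0438 RPKM. On this length the order has 4 steps whose ranges over the libraries do not overlap. Adamts5 and Adamts1 form the first, with Adamts5 higher in 3 of 6 libraries, and Adamts20 and Adamts4 the next, with Adamts20 higher in 4 of 6. Adamts15 and Adamts9 follow, each higher in 3 of 6 libraries, and Adamts8 is last, with a mean 10.1 times below Adamts9. Within each pair the ranges overlapped, so their order is not settled. Dividing by the longest transcript in place of the summed exons put Adamts1 above Adamts5 (9.78 and 9.50 RPKM) and raised Adamts15 to 0.944 and Adamts9 to 0.835 RPKM. It also closed 2 of the 3 gaps between steps: the lowest Adamts5 value (6.06) then lay below the highest of Adamts20 (6.15), and the lowest Adamts4 value (1.60) below the highest of Adamts15 (1.81). The gap above Adamts8 remained.

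Adamts1 and Adamts5 together made up 75.5% to 76.5% of the summed RPKM of the 7 genes in wildtype libraries and 72.4% to 77.9% in knockout libraries. The ratio of Adamts5 to Adamts1 RPKM was 0.819, 1.16 and 0.768 in wildtype and 0.934, 1.50 and 1.51 in knockout nerve, and the groups overlapped. The sum itself was 31.7, 25.2 and 18.4 RPKM in wildtype and 29.7, 20.8 and 21.2 RPKM in knockout nerve. On the same scale Vcan was at 0.578, 0.665 and 0.506 RPKM in wildtype and 0.376, 0.186 and 0.199 RPKM in knockout nerve. The summed protease RNA was therefore 54.9, 37.9 and 36.3 times the Vcan RNA in wildtype libraries and 78.9, 112 and 107 times in knockout libraries, with no overlap. The 2 parts of the ratio differed in this: Vcan RPKM did not overlap between the groups, while the summed level averaged 25.1 ± 6.68 RPKM in wildtype and 23.9 ± 5.02 RPKM in knockout nerve (SD, n = 3). The Vcan length of 14462 bases sums all exons, with exon 8 among them, and splice forms without exon 8 are shorter. Counts do not tell the forms apart, so the size of these multiples is not settled.

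**Figure D4:**
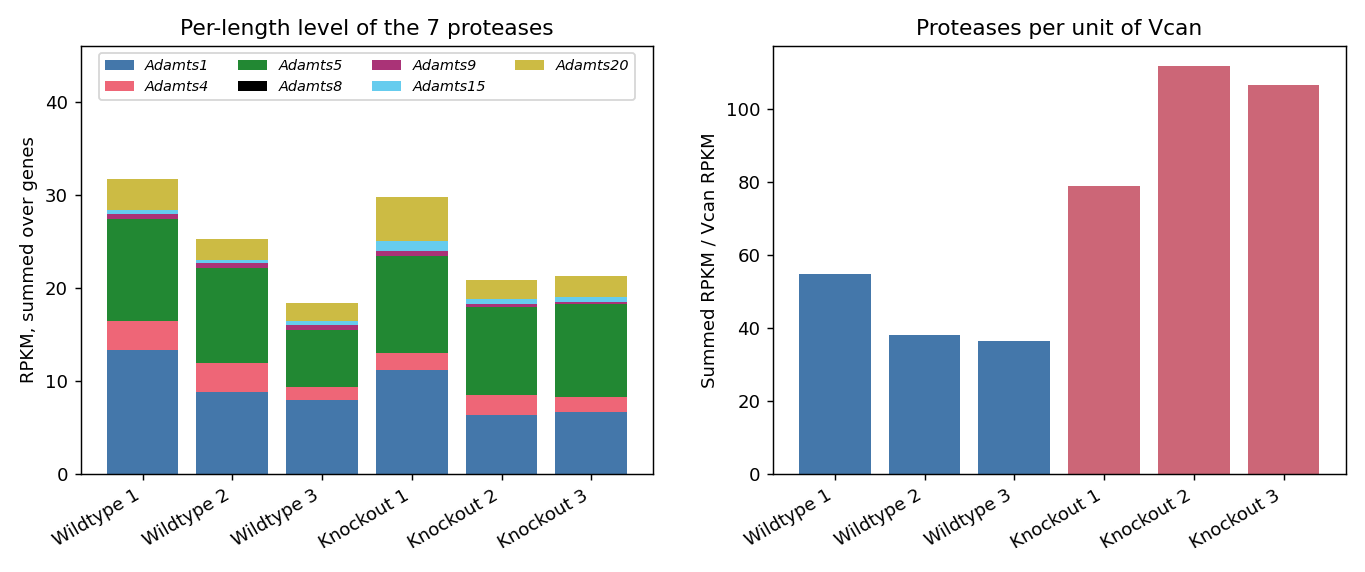
Left, RPKM of the 7 proteases stacked for each library, with Adamts1 and Adamts5 as the 2 largest segments and Adamts8 too low to see. Right, the summed RPKM divided by Vcan RPKM, which is 36.3 to 54.9 in wildtype (blue) and 78.9 to 112 in knockout (red) libraries. The divisor is the targeted gene, whose RPKM did not overlap between the groups, whereas the summed RPKM did.

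The genes most like each member over the 6 libraries were found by the mean absolute difference between log2 CPM values, each centred on its own mean, among 13642 or 13643 genes. For Adamts1 they were Kif1b (difference 0.06) and Sema3a (0.07), and for Adamts4 Prima1 (0.05) and Penk (0.08). Kctd7 and Tbkbp1 were nearest to Adamts5 (0.02 each), and Micall1 (0.06) and Tapbpl (0.08) to Adamts9. Klhl33 and Mcph1 lay nearest to Adamts20 (0.06 each). Tmem2, a cell-surface protein of hyaluronan metabolism, and Xkr6 were nearest to Adamts15 (0.12 and 0.13). Tmem2 was at 43.9, 33.5 and 49.9 CPM in wildtype and 83.3, 47.7 and 40.6 CPM in knockout nerve, with the same high value in knockout replicate 1. Plek and Gmfg were nearest to Adamts8 (0.10 and 0.12). The median difference over all genes compared ran from 0.28 for Adamts5 to 0.45 for Adamts20. The genes named are the nearest of all those compared over only 6 libraries, so their differences are small by selection. Shared regulation was not tested.

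The surrounding pathway was described by 7 lists with 45 genes, of which 43 passed the filter on low counts. None of the 43 passed in edgeR over all genes, 4 had an unadjusted p under 0.05 (5.20% of all genes tested did), and limma-voom called none. DESeq2 called 4 of the 45, Fbln2 and Adamts13 as higher and Vcan and Adamts12 as lower, against 1.44% of all genes it tested. The groups stood apart with the knockout higher for 3 of the 43 tested genes and with the knockout lower for 3, against 5.42% and 4.93% of all genes, so these counts are near the background. Vcan, the targeted gene, is counted in these lists. It is 1 of the 4 with an unadjusted p under 0.05, 1 of the 4 that DESeq2 called and 1 of the 3 lower in the knockout. The median log2 fold change of the 43 was −0.10.

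Among the other substrates, 5 of 7 had negative fold changes and none passed. Decorin (Dcn), a small leucine-rich proteoglycan, was at 860, 937 and 800 CPM in wildtype and 576, 788 and 634 CPM in knockout nerve. The groups did not overlap, yet the difference did not pass (log2 fold change −0.38, SE 0.18, edgeR adjusted p = 0.9996). Of the lecticans besides Vcan, Acan had a log2 fold change of −0.43 (SE 0.19), Ncan of −0.30 (SE 0.36) and Bcan of 0.12 (SE 0.33).

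The genes that restrain these proteases did not pass either. Timp3, the inhibitor of ADAMTS4 and ADAMTS5, averaged 814 ± 256 CPM in wildtype libraries and 591 ± 104 CPM in the knockout (SD, n = 3), a log2 fold change of −0.46 (SE 0.26). It was at 1110 CPM in wildtype replicate 3 and 665 to 668 CPM in the other wildtype libraries, and without replicate 3 the log2 value was −0.18. Timp1, another metalloprotease inhibitor, was low, at 2.33, 3.71 and 2.98 CPM in wildtype and 4.42, 3.76 and 3.76 CPM in knockout nerve. Its groups did not overlap, and its log2 fold change was 0.40 (SE 0.25, edgeR adjusted p = 0.9996). Lrp1, the clearance receptor, was at 405 ± 163 and 368 ± 199 CPM (SD, n = 3). Of the genes that activate or hold the enzymes, the convertase Furin was at 78.5 ± 35.7 and 62.6 ± 2.85 CPM and the syndecan Sdc4 at 216 ± 133 and 173 ± 36.4 CPM (wildtype and knockout, SD, n = 3). The convertase Pcsk6 had a log2 fold change of −1.12 (SE 0.62), which went to 0.039 without wildtype replicate 3. Leaving out that library also turned the sign of Lrp1 (0.20), Sdc4 (0.29) and Furin (0.10) on the log2 scale, and of Bcan among the lecticans (−0.20).

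The fibulins bind versican, and fibulin-1 is a known cofactor of ADAMTS1. Fbln2 was at 49.4, 41.3 and 45.2 CPM in wildtype and 72.6, 76.7 and 68.5 CPM in knockout nerve. The groups did not overlap (log2 fold change 0.68, SE 0.13), and the adjusted p was 0.247 in edgeR and 0.00411 in DESeq2 (0.00411 to 0.960 over the 12 alternatives). Fbln1 averaged 80.2 ± 19.5 and 81.1 ± 6.26 CPM (SD, n = 3).

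Of the 12 other ADAMTS proteases 10 passed the filter and none passed in edgeR. Their median log2 fold change was 0.17, against 0.13 for the 7 versican-cleaving members. The gene furthest from 0 was Adamts12, a protease of cartilage oligomeric matrix protein (chromosome 15, 11064790 to 11349231, GRCm38). It was at 6.48, 3.37 and 6.94 CPM in wildtype and 1.75, 0.780 and 0.557 CPM in knockout nerve. All knockout values lay below all wildtype values. Its log2 fold change was −2.44 (SE 0.52), with an adjusted p of 0.314 in edgeR and of 0.000173 in DESeq2 (0.000173 to 0.9999 over the 12 alternatives), and of 0.000252 in the authors' deposited table. Over the 12 alternatives its log2 fold change ran from −3.06 to −2.15. Adamts13, the protease of von Willebrand factor, did not pass the filter, with 4, 1 and 1 counts in wildtype and 294, 8 and 64 in knockout libraries. These knockout counts spanned a wide range, and 294 of them came from replicate 1. Of the 7 ADAMTS-like proteins, which lack the protease domain, none passed. Adamtsl2 was at 2.53, 2.27 and 2.28 CPM in wildtype and 3.02, 3.75 and 5.31 CPM in knockout nerve, without overlap (log2 fold change 0.77, SE 0.28, edgeR adjusted p = 0.842).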

How the data were processed

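The submitters' processing notes name the mm10 build, HTSeq and DESeq2. Which aligner was used, and tool versions, are not stated in these sources. The deposited counts are raw whole numbers per gene. The authors' table also holds a deposited mean of normalised counts (a signal), a log2 fold change with its SE, a score that the header names as the test statistic, and p-values, which are quoted only where named. There were 5 symbols on 2 identical rows, which were joined. Counts were tested over all genes in R 4.3.3 with edgeR 4.0.16 (filterByExpr, TMM factors 0.964 to 1.02, robust quasi-likelihood F test, 2-sided, Benjamini-Hochberg, threshold 0.05), with wildtype and knockout as the groups, 3 libraries each and no block. The SE is the log2 fold change divided by the square root of F, and intervals are 95%. The alternatives were DESeq2 1.42.0, limma-voom (limma 3.58.1), 2 other scalings, no filter, a replicate block and leaving out each library. The pipeline was tested on simulated data. No pair of libraries agreed within sampling noise (chi-square per degree of freedom at least 39.9). CPM are TMM-scaled. RPKM use GENCODE vM21 exons (GRCm38). No 50-base stretch of a member's longest transcript occurs in another gene.

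The members, lists and named genes were chosen with earlier results of these data known. Pathway genes were named by a rule: those past the threshold, then up to 3 per list with no overlap or the highest mean. Adamts13 was chosen after its values were seen, and so were the markers named singly. A mean of 1 CPM and a prior count of 2 were used for the like patterns, leaving out predicted genes. Some marker and overlap results are not reported here.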

Additional observations from a re-analysis of the deposited data

How the results depend on the processing

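None of the 7 proteases was called in any of the 12 alternatives (lowest adjusted p 0.330), and 82 of 84 log2 fold changes kept their direction. Leaving out a library gave −0.10 to 0.29 for Adamts5 and −0.20 to 0.55 for Adamts20. Among pathway genes, these fits also turned the sign of Bcan (−0.20 to 0.35), Lrp1 (−0.68 to 0.20), Sdc4 (−0.62 to 0.29), Pcsk6 (−1.47 to 0.039), Furin (−0.52 to 0.10), Fn1 (−0.73 to 0.12), Fbln1 (−0.17 to 0.18), Adamts10 (−0.22 to 0.10), Thsd4 (−0.33 to 0.35) and Adamtsl5 (−0.35 to 0.072). Genes called over the whole table numbered 23, but 256 in DESeq2 and 3 with the replicate block, and 3 to 14 when a library was left out; the cause was not tested, beyond fewer samples in the last. Counts of 22 to 25 came from the other settings. The replicate numbers were taken from the sample titles, and whether they pair the animals is not stated. Deviations of same-numbered libraries correlated at 0.43, 0.22 and −0.15, and not every library correlated best with its own number. Such correlations cannot settle whether animals were paired. In the column names knockout replicates 2 and 3 carry the numbers 3 and 4; by those names wildtype 3 would go with knockout replicate 2 (0.21), and the block uses the titles. It called 0 of the 7 proteases. Per transcript length in place of exon length, Adamts9 moved to 0.835 and Adamts15 to 0.944 RPKM. Counts were fewest for Adamts8, at 9 to 24 per library, and counting error was not separated from variation between animals.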
